A study of Homo sapiens with 4 samples.

Results

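The regions described here are stretches of the genome of 786-O cells in which ATAC-seq peaks were called after treatment with ACSS2i and in neither vehicle library. They were chosen by peak calls: overlapping intervals of the 4 peak lists (1 bp or more, chromosomes 1 to 22, X and Y) were merged, and a merged region was kept if it held a peak of at least 1 ACSS2i library and none of a DMSO library. The rule found 1400 such ACSS2i-only regions among 53572 merged regions, which is 2.61%. A further 22065 regions held peaks of both groups (shared regions) and 30107 held DMSO peaks alone. Because presence in the lists chose the regions, their presence and peak strength are given as a description, with no test.

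The study compared 2 libraries of 786-O cells given DMSO, the vehicle, with 2 libraries given 5 µM ACSS2i, and both groups were treated for 24 h. 786-O is an established human line of clear cell kidney cancer without working VHL, so that HIF2α is not degraded in either group. Cells of both groups were frozen before assay, then thawed and treated with DNase I, and the labels do not say whether replicates were separate cultures, so the spread between libraries may be technical. All libraries come from 1 cell line at 1 dose and 1 time.

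ATAC-seq uses the Tn5 transposase, which cuts and tags DNA that is not wrapped in nucleosomes, so reads pile up at active promoters, enhancers and insulator sites. A peak caller compares the pileup at a site with the fragments expected from its surroundings, and a site is listed only when the excess passes a threshold. ACSS2 makes acetyl-CoA from acetate, and acetyl-CoA is the donor for histone acetylation, a mark of accessible chromatin. A region can be listed in 1 library and not in another both where accessibility differs and where the signal lies near the calling threshold.

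The ACSS2i lists were the shorter ones. DMSO replicates 1 and 2 held 34696 and 50294 peaks, and ACSS2i replicates 1 and 2 held 16400 and 22044. Gene starts of 10 genes listed for kidney or 786-O identity carried a peak in 10, 10, 6 and 10 cases in the same order. PAX8, CDH2, EPAS1 and CDH6 were the ones without a peak in ACSS2i replicate 1, the library with the shortest list. The share of all gene starts with a peak is not given here, so no loss of identity is read from these counts. Of 12 markers of blood, endothelial, liver, neuronal and muscle cells, SNAP25 had a start peak in both DMSO libraries and SYP in DMSO replicate 2, and no such peak was listed in either ACSS2i library.

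Few ACSS2i-only regions touched a promoter window, and the 3 windows with the longest overlap are printed because they show the sequence that was called. Windows run from 250 bases before to 50 after a start listed by RefSeq on GRCh38.p14, the build of the peak lists (hg38), and are written 5′ to 3′ on the strand of the gene, with the overlap with the ACSS2i-only region in capitals. PEX10 encodes a ubiquitin ligase of the peroxisome membrane, its window lies at chr1:2413778-2414077 on the minus strand, and 272 of its bases were covered. JPT2 encodes a member of the Jupiter microtubule-associated family, its window lies at chr16:1680113-1680412 on the plus strand, and 227 bases were covered. ZNF438 encodes a zinc finger protein, its window lies at chr10:30999471-30999770 on the minus strand, and 135 bases were covered.
PEX10: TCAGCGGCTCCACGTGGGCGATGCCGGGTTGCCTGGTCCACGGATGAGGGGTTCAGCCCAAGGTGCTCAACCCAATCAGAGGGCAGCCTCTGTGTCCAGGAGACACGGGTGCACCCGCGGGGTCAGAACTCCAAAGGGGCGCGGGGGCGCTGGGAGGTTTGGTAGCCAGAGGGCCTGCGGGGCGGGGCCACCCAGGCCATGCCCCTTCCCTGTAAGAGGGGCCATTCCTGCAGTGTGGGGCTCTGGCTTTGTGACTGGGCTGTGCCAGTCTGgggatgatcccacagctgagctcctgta
JPT2: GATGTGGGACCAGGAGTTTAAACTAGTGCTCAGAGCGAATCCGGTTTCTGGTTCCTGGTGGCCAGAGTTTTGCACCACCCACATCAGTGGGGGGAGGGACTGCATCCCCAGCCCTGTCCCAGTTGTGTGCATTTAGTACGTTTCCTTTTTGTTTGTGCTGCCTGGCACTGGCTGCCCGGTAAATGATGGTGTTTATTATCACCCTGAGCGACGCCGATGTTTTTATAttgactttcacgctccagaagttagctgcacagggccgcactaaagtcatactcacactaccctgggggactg
ZNF438: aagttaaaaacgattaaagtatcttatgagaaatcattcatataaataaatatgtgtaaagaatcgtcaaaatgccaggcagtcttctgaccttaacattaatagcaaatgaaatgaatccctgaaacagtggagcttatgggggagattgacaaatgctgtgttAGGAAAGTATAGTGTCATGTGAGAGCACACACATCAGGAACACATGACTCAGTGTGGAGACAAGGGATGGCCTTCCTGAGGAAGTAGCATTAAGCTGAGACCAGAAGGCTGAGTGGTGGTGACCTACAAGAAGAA

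The PEX10 peak was called in ACSS2i replicate 2 with a −log10 q of 3.38, and the closest DMSO peak lay 0.113 kb away. The JPT2 peak was called in ACSS2i replicate 1 with a −log10 q of 2.78, with a DMSO peak 0.559 kb away. The ZNF438 peak was called in ACSS2i replicate 2 with a −log10 q of 2.06, which is just above the minimum of 2 in the lists, and its closest DMSO peak lay 5.20 kb away. In all, 8 windows outside chromosome 8, for which the table lists no windows, were overlapped; the others belonged to FOXP1-DT, PPP1R3A, SLC1A5, LOC107985952 and LOC124904304. Their median GC content was 46.8%, against 65.7% for the 11303 windows overlapped by shared regions, 66.7% for the 3871 overlapped by DMSO-only regions and 58.7% for all 34935 windows. The AP-1 motif TGANTCA, whose palindromic letters read the same on both strands, was found in the ZNF438 and LOC107985952 windows and in 7.72% of all windows. In ZNF438 it lay within the ACSS2i-only region. In LOC107985952, where 39 bases were covered, it lay outside the region.

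The regions came almost wholly from single libraries. ACSS2i replicate 1 contributed 262 of its 15603 regions (1.68%, exact 95% binomial interval 1.48 to 1.89%), and ACSS2i replicate 2 contributed 1150 of its 21243 (5.41%, 5.11 to 5.73%). Of the 1400 regions, 250 were called in replicate 1 alone, 1138 in replicate 2 alone and 12 in both. Leaving out DMSO replicate 2 gave 2660 ACSS2i-only regions, and leaving out ACSS2i replicate 2 gave 264. The 12 in both were 0.0897% (0.0463 to 0.157%) of the 13381 regions called in both ACSS2i libraries. Calls in 1 library alone were also frequent under DMSO: 2382 regions (7.02% of its regions) were called in DMSO replicate 1 alone and 17169 (34.5%) in DMSO replicate 2 alone. Binomial intervals here and below cover counting error only.

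ACSS2i-only peaks were weak within their own lists. In ACSS2i replicate 1 their −log10 q ranged from 2.00 to 227 with a median of 2.67, against a median of 6.31 for peaks in shared regions. In ACSS2i replicate 2 it ranged from 2.00 to 191 with a median of 2.72, against 7.56. A −log10 q below 3 was found for 161 of 262 peaks (61.5%) and 719 of 1150 (62.5%), compared with 9.98% and 9.27% of the peaks in shared regions. The lowest quartile of −log10 q in each list held 90.5% and 92.3% of the ACSS2i-only peaks. The fold enrichment deposited for each summit had a median of 3.52 and 3.21, against 4.68 and 4.36 in shared regions.

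In reads, the median ACSS2i-only summit stood on 13 overlapping fragments in replicate 1 and 14 in replicate 2, where the lowest pileup of any listed peak was 11 and 12. These pileups were recovered from the deposited fold and p columns. The local background, the fragment level that the caller took for the surroundings, sat at the lowest level of the library for 31 (11.8%) and 309 (26.9%) of the ACSS2i-only peaks, and for 8.65% and 13.7% of the peaks in shared regions.

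ACSS2i-only regions were narrow. Their median width was 226 bp (153 to 1306 bp), against 982 bp for shared regions, which join several peaks, and 369 bp for DMSO-only regions. As single peaks, they had a median width of 188 and 235 bp in ACSS2i replicates 1 and 2, and the peaks in shared regions 419 and 498 bp. Within 50 bp of the shortest peak of the list (153 and 176 bp) lay 59.5% and 44.9% of them, compared with 13.2% and 10.5% of the peaks in shared regions. A single summit per peak was found in 1392 of the 1400 regions.

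At the edge of the rule, calls depended on a few bases. For 7 ACSS2i-only regions the gap to a DMSO peak was 10 bp or less, as in ENAH (0 bp, intervals that touch), BABAM2 (0 bp), PPP4R1 (1 bp) and PDLIM1 (3 bp). Just outside the rule, 4 regions were shared through an overlap of 10 bp or less, as in PDE10A (1 bp), DGKI (5 bp) and ARMH4 (5 bp). Most members lay farther off: the median distance to the closest DMSO peak was 51.3 kb, 138 regions (9.86%) had one within 1 kb, 330 (23.6%) within 10 kb, and 446 (31.9%) had none within 100 kb.

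Gene starts were rare among the ACSS2i-only regions. Within 1 kb of a protein-coding gene start lay 23 of 1400 (1.64%, exact 95% interval 1.04 to 2.45%), against 36.1% (35.5 to 36.8%) of the shared and 13.1% (12.8 to 13.5%) of the DMSO-only regions. Leaving out DMSO replicate 2 moved the share of ACSS2i-only regions to 8.38%, and leaving out ACSS2i replicate 2 moved it to 3.03%. With all 4 libraries, a further 488 (34.9%) lay inside a gene span and 889 (63.5%) between genes, where shared regions had 33.6% and 30.3%. The median distance to a start was 165 kb, against 10.9 kb for shared and 29.1 kb for DMSO-only regions, and 839 (59.9%) lay over 100 kb from any start, against 15.1% and 22.9%. With 1 overlapping gene span of any kind taken per region, it was a protein-coding gene for 485 and a long noncoding RNA gene for 228, while 675 overlapped none and no miRNA hairpin was overlapped.

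Both ACSS2i libraries showed this, and regions called in a single DMSO library did so to a lower degree. Regions called in ACSS2i replicate 1 alone lay near a start in 2.80% of cases (1.13 to 5.68%) at a median of 89.2 kb, and those of replicate 2 alone in 1.41% (0.806 to 2.27%) at 186 kb. Regions of DMSO replicate 1 alone lay near a start in 5.16% (4.31 to 6.13%) at 35.5 kb, and those of DMSO replicate 2 alone in 10.6% (10.1 to 11%) at 32.0 kb. Shared peaks from the same quartile of the list differed from them. In the lowest quartile of ACSS2i replicate 1, 2.53% of ACSS2i-only and 35.5% of shared peaks lay near a start, and in that of replicate 2, 1.41% and 32.4%. Strength was not fully matched within this quartile. The median −log10 q of ACSS2i-only and shared peaks was 2.56 and 3.21 in replicate 1, and 2.69 and 3.18 in replicate 2. Their median width was 188 and 246 bp in replicate 1, and 233 and 293 bp in replicate 2.

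**Figure D1:**
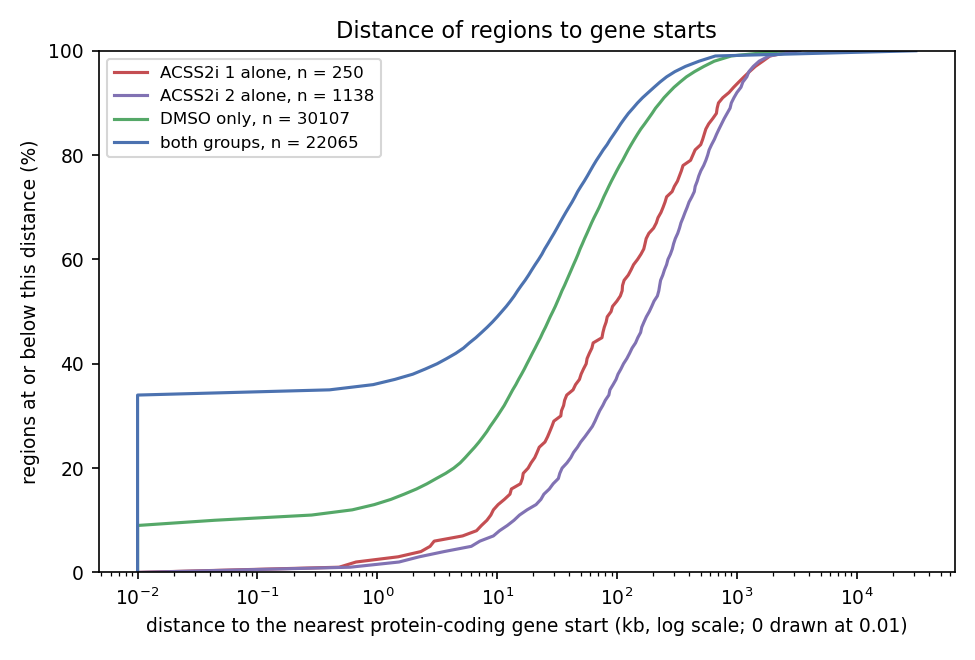
Cumulative percentage of regions (y axis) against the distance to the nearest protein-coding gene start in kb (x axis, log scale), for regions called in ACSS2i replicate 1 alone (n = 250), in ACSS2i replicate 2 alone (n = 1138), in DMSO libraries only (n = 30107) and in both groups (n = 22065). Both ACSS2i curves lie to the right, with medians of 89.2 and 186 kb, against 29.1 kb for DMSO-only and 10.9 kb for shared regions.

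Of the 23 regions near a start, 14 had a DMSO peak within 1 kb. A gene can have several listed starts, and its start here means the one closest to the region. For some genes, such as KRT8, CNKSR3 and SEM1, that start lay inside the gene span, away from both ends. KRT8, a keratin of simple epithelia, held a region 0.325 kb from its start in ACSS2i replicate 2 (−log10 q 3.07, fold 2.78). SLC16A3, the lactate exporter MCT4, held one at 0.384 kb in replicate 1 (3.05, fold 2.91), and ANP32A, a subunit of a histone acetylation inhibitor, at 0.666 kb in replicate 1 (3.22, fold 3.91). CNKSR3, a signalling scaffold, and FOXP1, a forkhead factor, had one at 0.595 and 0.895 kb in replicate 2. For KRT8, ANP32A, CNKSR3 and FOXP1 a DMSO peak lay within 1 kb of the region (0.120, 0.131, 0.495 and 0.938 kb), so the listed start was not without DMSO peaks nearby. The strongest of the 23, with a −log10 q of 4.35 in replicate 1, overlapped the span end of LOC124901868 on chromosome 8, where starts were not listed and both span ends were used, and a DMSO peak lay 0.167 kb away.

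The other 9 had no DMSO peak within 1 kb. FBN1, which encodes the matrix protein fibrillin-1, had a region 0.304 kb from its start in ACSS2i replicate 2 (fold 3.65, −log10 q 4.31), and the closest DMSO peak lay 49.4 kb away. SELENOP, a secreted selenium carrier, had one at 0.439 kb in replicate 2 (fold 3.55, −log10 q 3.88), with a DMSO peak 93.2 kb away. SEM1, a proteasome subunit, had one at 0.562 kb in replicate 2 (−log10 q 3.90), with a DMSO peak 5.31 kb away. None of the 23 was called in both ACSS2i libraries.

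Gene lists tied to the inhibitor's pathway were counted against all genes. With a region in the span or within 10 kb counted, 507 of all 19862 protein-coding genes (2.55%) had an ACSS2i-only region. None of 26 HIF targets (such as VEGFA, CA9 and CCND1), none of 6 study genes (ACSS2, EPAS1, HIF1A, ARNT, MUL1, VHL), none of 20 sterol and fatty acid synthesis genes and none of 20 AP-1 and immediate early genes had one. Shared regions were present at 84.6%, 100%, 95% and 90% of these genes, against 63.0% of all protein-coding genes. DMSO-only regions were present at 80.8%, 83.3%, 50% and 55%, against 57.4% of all. Lists this short at 2.55% would hold few members in any case, so nothing is read from the counts of 0. SLC16A3 and DDIT4, which low oxygen also induces, had members and are not on the HIF target list.

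Among 29 genes of acetyl-CoA supply and histone acetylation, HDAC9, a class IIa histone deacetylase with a span of 916 kb, was the one with members. It held 2 regions, both called in ACSS2i replicate 2, with fold 3.15 and 2.88 and −log10 q 2.72 and 2.20. Among 20 stress genes, DDIT4 and DNAJB1 had members. DDIT4, an inhibitor of mTORC1 that low oxygen induces, had a region 2.99 kb from its start in replicate 1 (fold 3.06, −log10 q 3.59) and another 0.506 kb from it in replicate 2 (fold 2.43, −log10 q 2.40), so the libraries called different intervals. A DMSO peak lay 0.311 kb from the DDIT4 region of replicate 2. DNAJB1, an HSP70 co-chaperone, had 1 region 9.52 kb from its start in replicate 1 (fold 3.44, −log10 q 2.68).

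Very long genes held many. Common fragile sites are stretches prone to breakage when replication is slowed. Of 35 very long genes of such sites, 20 (57.1%) held a region, with 42 regions in all. Shared regions were present at 77.1% of the 35 genes and DMSO-only regions at 94.3%, both from far larger sets. Among all protein-coding genes the shares were 2.55% (ACSS2i-only), 63.0% (shared) and 57.4% (DMSO-only). The median span of the list was 1403 kb, against 24.5 kb for all protein-coding genes. Of all 69 protein-coding genes over 1000 kb, 32 (46.4%) had a member inside the span. The list is therefore not shown to differ from long genes in general. CSMD3, a large membrane protein with CUB and sushi domains, held 9 regions in 1214 kb and LRP1B, a giant receptor of the LDL receptor family, held 7 in 1900 kb. CNTNAP2, a neuronal adhesion protein of the neurexin family, held 4 and NAALADL2 held 3. AUTS2 and PCDH15 were among the genes with 2, and GPC5, WWOX, RBFOX1 and PTPRD among those with 1.

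Counted per length, ACSS2i-only regions were denser in longer genes and shared regions in shorter ones. Genes of up to 10 kb held 0.229 ACSS2i-only regions per Mb of span and genes over 1000 kb held 0.815, while shared regions went from 73.3 to 1.82 per Mb. A member lay in 6 of 5579 genes of up to 10 kb (0.108%) and in 32 of 69 genes over 1000 kb (46.4%). Of other families, 8 of 389 olfactory receptors (2.06%), 9 of 518 ZNF genes (1.74%), 1 of 66 PCDH genes and 1 of 14 NBPF genes had a member, and the HLA-, KRTAP, GOLGA6 or GOLGA8, POTE, ANKRD20A or ANKRD30, TBC1D3 and USP17L families had none. The POTE, TBC1D3 and USP17L genes had no shared or DMSO-only region either. Shared regions were present at 7.45% of KRTAP and 10.3% of GOLGA6 or GOLGA8 genes. Nothing is read from the families without a member.

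**Figure D2:**
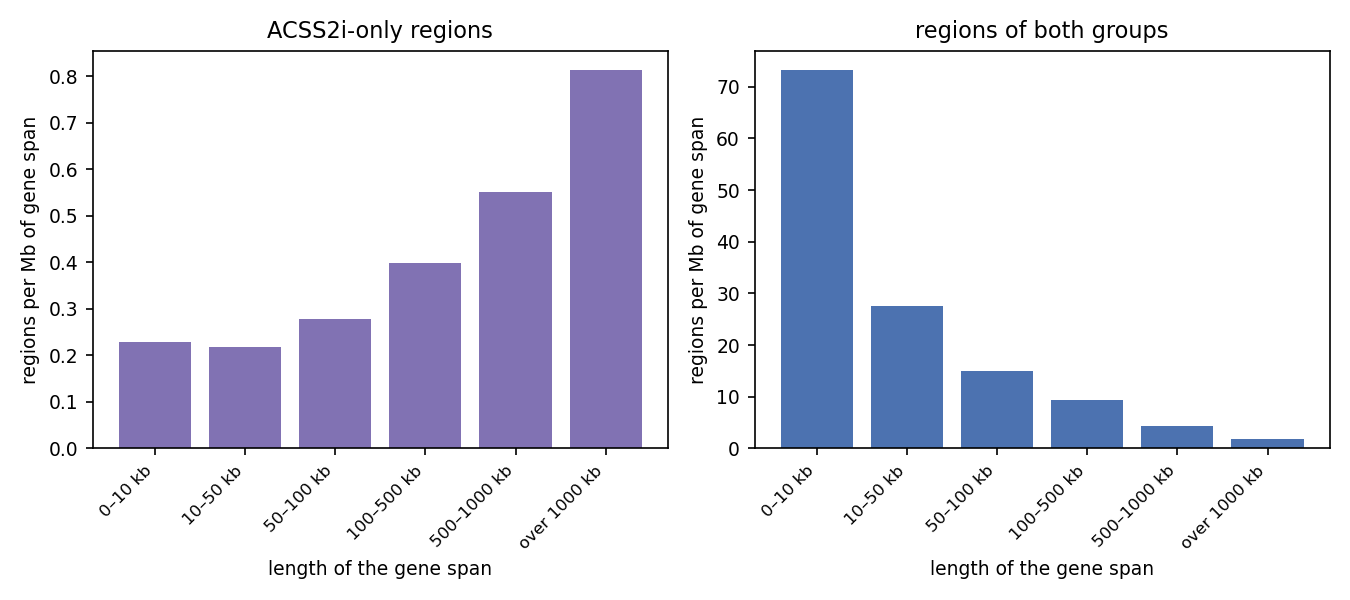
Regions per Mb of gene span (y axes, each starting at 0) in protein-coding genes grouped by span length (x axes), for ACSS2i-only regions (left) and shared regions (right). The left bars go from 0.229 in the shortest class to 0.815 in the longest, and the right bars from 73.3 to 1.82.

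The genes with the most members were picked out after their values were seen, and those with 5 or more held 0 to 2 shared regions each. Low counts were common in long genes: the 69 genes over 1000 kb held 174 shared regions, and the 246 genes of 500 to 1000 kb held 724. TENM2 and IQCJ-SCHIP1, with 3 members each, held 6 and 9 shared regions. DMSO-only regions of these genes are not given here. After CSMD3 and LRP1B came CDH12, a neuronal cadherin, with 6 regions, and ERBB4, a receptor tyrosine kinase, PRKG1, the cGMP-dependent kinase, RALYL, an RNA-binding protein, and VPS13B, a lipid transfer protein, with 5 each. CSMD3 and RALYL held 0 shared regions, LRP1B, CDH12, ERBB4 and PRKG1 held 1 and VPS13B held 2. Of the 9 regions in CSMD3, 7 came from ACSS2i replicate 2 and 2 from replicate 1.

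Along the genome, 5 chromosomes held most of the ACSS2i-only regions. Chromosomes 8 (208 regions), 2 (202), 7 (183), 1 (148) and 5 (148) held 889 (63.5%), against 34.8% of shared and 34.2% of DMSO-only regions. Chromosome 14 held 1 region, Y 3, and 22 and X 4 each. Chromosome bands were not used here, so arms and 5 Mb bins are given, with arms split at the longest gene-free stretch of each chromosome, called the centromere gap below.

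By arm, the share of ACSS2i-only regions among all regions with an ACSS2i peak went from 0.238% to 23.3%. It was highest on 5p (84 of 360 regions, 23.3%) and 8q (204 of 988, 20.6%), followed by 7q (14.1%), 4p (11.3%) and 2q (10.9%). It was lowest on 14q (1 of 421, 0.238%), 17p (0.405%), 19p (0.456%) and Xq (0.481%). The arms of a chromosome could differ: 8p had 1.98% against 20.6% on 8q, and 5q 6.57% against 23.3% on 5p.

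With the 4 leading arms pooled, the shares of both ACSS2i libraries were above those of shared regions and of regions called in a single DMSO library. Arms 5p, 8q, 7q and 4p, chosen after their values were seen, held 20% of the regions called in ACSS2i replicate 1 alone and 35.3% of those in replicate 2 alone. They held 9.73% of shared regions, 11.3% of the regions of DMSO replicate 1 alone and 10.1% of those of DMSO replicate 2 alone. Regions called in a single DMSO library thus sat on these arms about as often as shared regions did. In ACSS2i replicate 1 alone, 5p, 8q and 7q held 3.6%, 9.2% and 5.6%, against 1.25%, 3.55% and 3.62% of shared regions. Arm 4p held 1.6%, against 1.31% of shared regions and 2.23% of those of DMSO replicate 1 alone. The arms were picked from all ACSS2i-only regions, most of which came from replicate 2, so the high share of replicate 2 partly follows from the choice.

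The local background differed between arms along with these shares. Given as a multiple of the lowest level in the library, the median over all peaks of 5p was 2.45 in DMSO replicate 1, 2.37 in DMSO replicate 2, 2.09 in ACSS2i replicate 1 and 1.97 in ACSS2i replicate 2. In the same order it was 2.59, 2.64, 2.04 and 1.89 on 8q, and on 14q it was 1.17, 1.56, 1.00 and 1.00. On 20q, where 1.67% of regions were ACSS2i-only, it was as high, at 2.38, 3.46, 1.9 and 2.16. Across the 40 arms with 100 or more regions, the share and the local background had a Pearson correlation of 0.65 (DMSO replicate 1), 0.14 (DMSO replicate 2), 0.74 (ACSS2i replicate 1) and 0.41 (ACSS2i replicate 2), given as a description, since arms share libraries and base composition. Its part in the result was not tested.

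**Figure D3:**
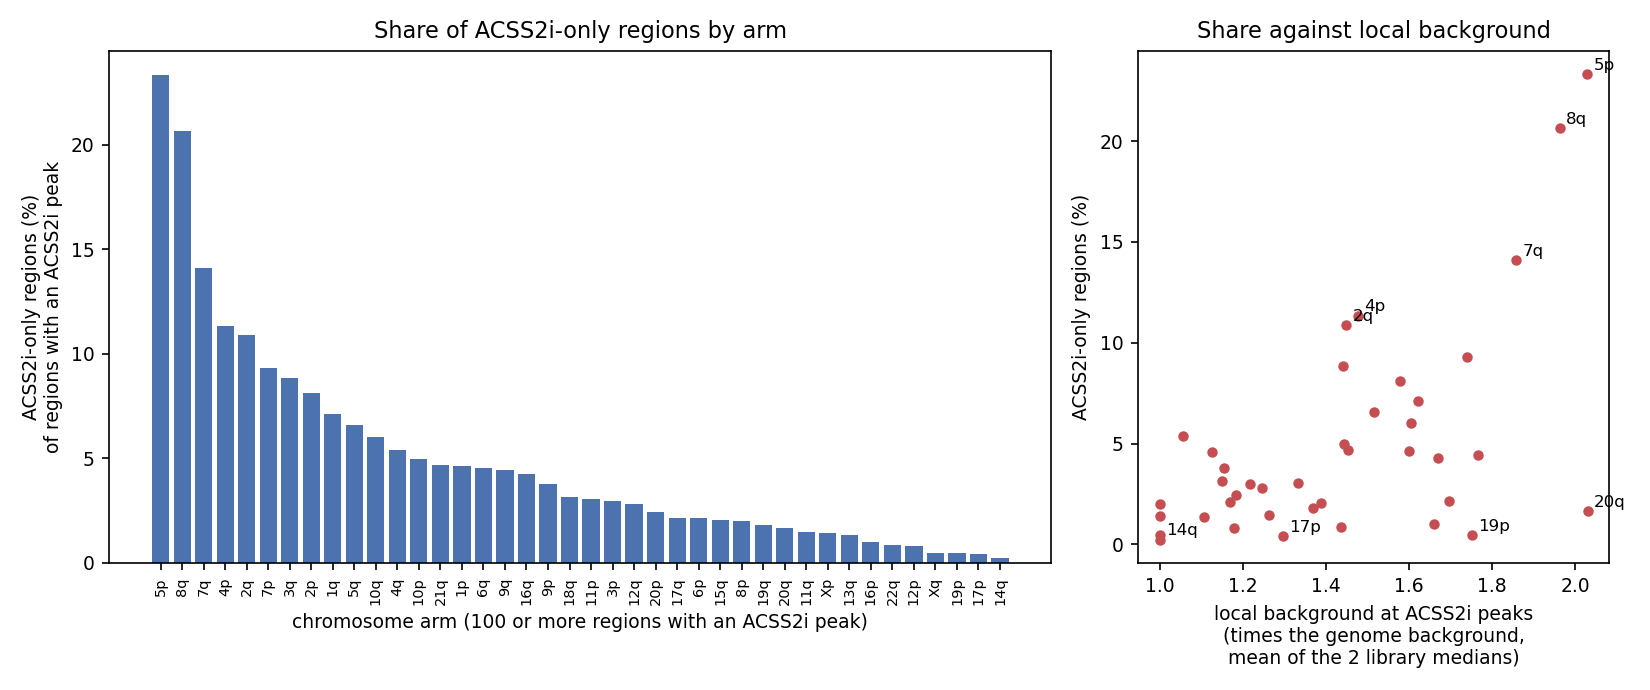
Left, percentage of regions with an ACSS2i peak that were ACSS2i-only (y axis, from 0) for each chromosome arm with 100 or more such regions. Right, the same percentage against the local background at ACSS2i peaks (x axis, multiple of the lowest level, mean of the 2 library medians), 1 point per arm; 5p and 8q are at the top right, and 20q has a similar background with 1.67%.

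Local crowding was seen in a few bins. Of 602 bins of 5 Mb with any region, 374 held a member and 34 held 10 or more, which made 450 regions (32.1%). The fullest bin, chromosome 8 from 110 to 115 Mb, held 34 ACSS2i-only, 2 shared and 11 DMSO-only regions. CSMD3 was the nearest protein-coding gene for 21 of the 34, KCNV1, a potassium channel subunit, for 9 and TRPS1, a GATA-type repressor, for 4. The next were chromosome 8 from 80 to 85 Mb (22 regions, near RALYL and SNX16), chromosome 7 from 115 to 120 Mb (19, most often near KCND2) and chromosome 8 from 75 to 80 Mb (19, near HNF4G, PEX2 and others). In the same order, these bins held 22, 40 and 18 shared regions and 37, 58 and 36 DMSO-only regions. Chromosome 5 from 25 to 30 Mb held 18, all from ACSS2i replicate 2, near the cadherin genes CDH9 and CDH10 and the locus LOC124901178. It also held 6 shared and 31 DMSO-only regions. DMSO-only regions outnumbered the members in each of the 5 bins except the fullest. No member in these 5 bins lay within 1 kb of a gene start, and 31 of the 34 regions in the fullest bin came from ACSS2i replicate 2.

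Most regions nevertheless stood alone. A neighbour of their own kind within 100 kb was found for 388 (27.7%), with a median distance of 252 kb to the closest, and the share was 5.30% without ACSS2i replicate 2. Among the 2382 regions of DMSO replicate 1 alone, the set nearest in size, 22.5% had a neighbour of their own kind. In the far larger sets of shared and DMSO-only regions it was 88.3% and 90.8%. Linking neighbours up to 100 kb apart gave 1181 chains, of which 1012 were single regions, 135 pairs and 34 chains of 3 or more with 118 regions.

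The longest chains had 5 regions. One at chr19:27353144-27385740 lay in the centromere gap, 1827 kb from any start, and all 5 of its regions were called in ACSS2i replicate 2, at −log10 q from 2.01 to 5.34. The chain at chr8:77206844-77300006, nearest to the peroxisome gene PEX2, took 2 regions from replicate 1 and 3 from replicate 2. That at chr8:82557450-82753954, nearest to SNX16, a sorting nexin, came from replicate 2. That at chr1:74187528-74426621 lay in and around TNNI3K, a cardiac kinase, with 1 region from replicate 1 and 4 from replicate 2. Of the 8 chains with 4 regions, the one with the shortest span lay inside CDH12 (chr5:22219304-22261755) and came from replicate 2.

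Near centromeres, ACSS2i-only regions were about as frequent as others but held the strong peaks. Of 1397 regions outside Y, 70 (5.01%, exact 95% interval 3.93 to 6.29%) lay within 5 Mb of a centromere gap, against 5.03% of shared and 5.17% of DMSO-only regions, and the share was 8.02% without ACSS2i replicate 2. Inside the gaps lay 16, compared with 10 shared and 15 DMSO-only regions out of far more. A −log10 q of 5 or more was found for 14 of the 70 (20%) and for 32 of the 1327 farther away (2.41%). In ACSS2i replicate 1, 10 members had a −log10 q of 10 or more, of which 8 lay within 5 Mb of a gap and 2 on Y, and in replicate 2 it was 6 of 7.

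**Figure D4:**
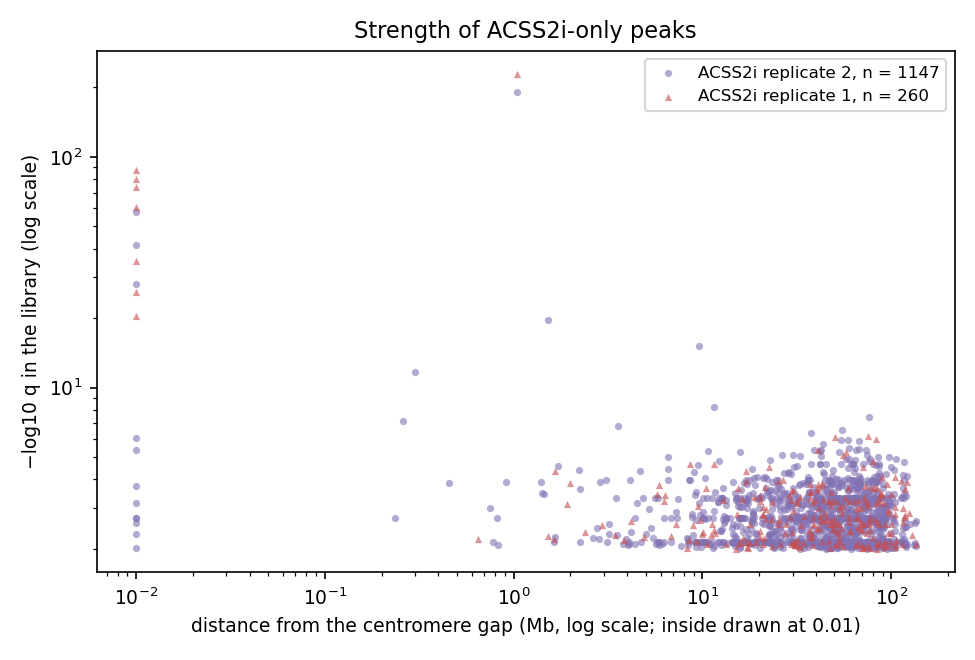
−log10 q of each ACSS2i-only peak within its library (y axis, log scale) against the distance of the region from the centromere gap in Mb (x axis, log scale, regions inside the gap drawn at 0.01), for ACSS2i replicate 1 (n = 260) and replicate 2 (n = 1147); regions on Y are not drawn. Peaks above 20 are inside or within 5 Mb of a gap, and nearly all others lie below 10.

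The 12 regions called in both ACSS2i libraries included most of the strongest ones. The top region of both libraries lay at chr6:61322949-61323134, between genes and 219.5 kb from KHDRBS2, an RNA-binding protein gene, with fold 32.6 and 30.2 and −log10 q 227 and 191 in replicates 1 and 2. The closest DMSO peak was 1649 kb away. It was 186 bp wide.

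Of the 12, 3 lay inside centromere gaps. At chr1:143214651-143214872 the fold was 22 and 16.3 (−log10 q 73.9 and 57.8), and at chr1:123755564-123755820 it was 11.2 and 10.3 (25.8 and 28.1). At chr21:8420428-8420606, on the gene-poor start of an acrocentric chromosome, it was 9.65 and 13.2 (20.4 and 41.6), with a DMSO peak 7.52 kb away.

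On Y, chrY:56706978-56707282 had fold 15.1 and 3.84 and chrY:11531546-11531736 had 6.25 and 4.26, the latter with a DMSO peak 0.300 kb away. At chr16:34574066-34574461 the fold was 2.92 and 7.01, with a DMSO peak 6.79 kb away.

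The remaining 5 had folds between 2.67 and 4.37. They comprised 2 regions inside the span of C1QTNF3, a secreted C1q/TNF-related protein, at chr5:34182010-34182216 (2.84 and 2.67) and chr5:34191273-34191808 (3.12 and 2.95). These 2 regions lay 139 and 148 kb from its start and overlapped the pseudogenes GUSBP18 and LOC646652. Their local background was 2.46 and 2.53 times the lowest level for the first and 3.44 and 5.16 times for the second. Another of the 5 lay 253 kb from FGF10, a growth factor gene, at chr5:44046409-44046974 (3.90 and 2.90). The others were 0.865 kb from the span of TCAF1, a TRP channel partner, at chr7:143849700-143850510 (4.37 and 3.55; DMSO peak 0.192 kb away) and 4.75 kb from ECE1, the endothelin-converting enzyme, at chr1:21350254-21350527 (3.46 and 2.86).

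The strongest regions called in ACSS2i replicate 1 alone lay in gaps too. They were chr17:26619952-26620210 (fold 24.7, −log10 q 87.6), chr13:17337578-17337734 (23.2, 79.9), chr1:124486029-124486184 (19.3, 60.7) and chr17:25389853-25390006 (13.6, 35.2), all between 154 and 259 bp wide. In replicate 2 alone they were chr19:37289365-37289546, 23.3 kb from ZNF875 (fold 7.21, −log10 q 15.2), chr4:49287970-49288237, 0.301 Mb from a gap and 0.648 kb from a DMSO peak (6.23, 11.6), and chr7:136793989-136794321, 74.3 kb from the muscarinic receptor gene CHRM2 (4.82, 7.44). No repeat annotation or mappability track was used here, so how reads were placed in these stretches was not tested.

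Over whole lists, which the merging also used and which include the 262 and 1150 ACSS2i-only peaks, libraries were set against each other with a two-sided exact permutation test, whose smallest possible p with 2 libraries a group is 0.33. Near a protein-coding gene start lay 29.7% and 23.5% of all DMSO peaks and 37.4% and 35.2% of all ACSS2i peaks (26.6 ± 4.37 against 36.3 ± 1.57%, SD, n = 2; exact permutation p = 0.33, Benjamini-Hochberg adjusted over 3 tests 0.5). Both ACSS2i lists were thus higher, which is the opposite of the low share in the ACSS2i-only regions. The share also fell in the order of list length, from 16400 peaks in ACSS2i replicate 1 to 50294 in DMSO replicate 2. List length was not matched in any of the 3 tests, and its part was not tested. Within 5 Mb of a centromere gap lay 5.03% and 5.12% of DMSO and 4.85% and 5.03% of ACSS2i peaks, a difference of −0.133 percentage points (exact permutation p = 0.667, adjusted 0.667), and the higher ACSS2i library lay between both DMSO libraries. The median local background over the lowest level was 1.80 and 2.23 under DMSO and 1.45 and 1.48 under ACSS2i (2.01 ± 0.301 against 1.47 ± 0.0264, SD, n = 2; exact permutation p = 0.33, adjusted 0.5), with both ACSS2i libraries lower.

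The number of regions differed with list length. With every list cut to its 16400 strongest peaks, 3629 regions were ACSS2i-only and 3569 were DMSO-only, and 502 and 835 of these were called in both libraries of their group. Of those 3629, 338 held a peak of the 1400, and 18.2% of the 3629 lay near a gene start, against 1.64% of the 1400. The distances from genes above hold for regions absent from the full DMSO lists, and regions defined at equal list length lay near starts more often.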

How the data were processed

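ATAC-seq peak lists of 2 DMSO and 2 ACSS2i libraries were used, grouped by the labels. Per the submitters' processing notes, the tools include MACS2 2.1.2, Bowtie2, Trimmomatic 0.38, SAMtools 1.9 and Picard 2.18.26, with build hg38. Not given in the sources used here: caller options, handling of duplicates and Tn5 shifts. Peaks were deposited per library. The deposited score column is a rescaled q and was not used. The deposited fold column is a ratio of summit to local background within the library, and −log10 p and −log10 q were deposited as the peak caller wrote them, with no −log10 q under 2. A summit offset was deposited by the authors in bp and used to count summits. These are the authors' values and were used to describe and rank peaks within a list. The lists are called filtered, by an unstated filter.

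Summits of 1 interval were counted once with the strongest values, and overlaps of 1 bp or more were merged (Python 3.11.15, pandas 2.3.3, SciPy 1.17.1). Fold and −log10 p gave the pileup, as a whole number, and the Poisson background of each summit, matching −log10 p within 0.001; 2 peaks in each ACSS2i library, none of them ACSS2i-only, could not be solved. Read totals are unknown. Gene spans came from RefSeq (GRCh38.p14), with 718 genes on other scaffolds left out. Listed starts, several for some genes, were used for 15841 of 19862 protein-coding genes, and both span ends stood in for 4021, chromosome 8 included. Distances run to the closest of these points. Centromere gaps are the longest gene-free stretches; for chromosomes 13, 14, 15, 21 and 22 they run from position 1 to the end of the last gene-free stretch over 1 Mb that begins in the first 20 Mb, and none was set for Y. Intervals are exact (Clopper-Pearson). The merging, recovery and distance steps were tested on simulated data.

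Regions were named by a rule: those called in both ACSS2i libraries, the 10 strongest per library, the 5 fullest bins and chains, the 10 strongest near a start, and up to 4 genes per list. Members and lists were chosen with earlier results of these data known. Alternatives covered thresholds, overlap, windows, distances and left-out libraries. Some genes of the lists are not reported here by name.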

Additional observations from a re-analysis of the deposited data

How the results depend on the processing

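The count of 1400 rested on list length and threshold. It was 524 with ACSS2i peaks kept from −log10 q of 3, 546 with that threshold in every list and 3629 with lists of equal length, and 264 to 2660 when 1 library was left out (264 without ACSS2i replicate 2, 1151 without ACSS2i replicate 1, 1503 without DMSO replicate 1 and 2660 without DMSO replicate 2). It was 1544 under a stricter overlap (50% of the shorter interval), 1282 when intervals within 500 bp were merged and 1327 without centromeric stretches and Y, the last chosen after seeing the data.

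The share near a gene start was 0.857% within 500 bp, 4.93% within 5 kb, 3.71% with genes of every biotype and 2.56% at −log10 q of 3, and 1.39 to 8.38% with 1 library left out, the highest without DMSO replicate 2 and 3.03% without ACSS2i replicate 2. Chosen after seeing the data, both span ends gave 1.79% and leaving out chromosome 8 gave 1.85%. The share with a neighbour was 5.57% at 10 kb, 77.6% at 1000 kb and 15.2% at −log10 q of 3, and 5.30 to 28.0% with 1 library left out, the lowest without ACSS2i replicate 2. The share near a centromere gap was 2.65% at 2 Mb, 9.52% at 10 Mb and 6.83% at −log10 q of 3, and 4.88 to 8.02% with 1 library left out, the highest without ACSS2i replicate 2. The windows differ by construction; otherwise the cause was not tested.

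The library differences kept their direction under every alternative run. The labels do not say that replicate numbers pair libraries; the deviations of replicate 1 libraries correlated at 0.17 over 13306 regions. With a replicate block the differences were 9.66 percentage points near starts, −0.133 percentage points near gaps and −0.55 in relative background, and no such paired test of 2 pairs could pass a threshold. Read depth is unknown, so a region absent from a list is not shown to be closed.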
